A study of Mus musculus with 12 samples.

Results

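The genes described here are 39 genes of the skeletal muscle sarcomere and of muscle fibre types, measured by RNA-seq in inguinal white adipose tissue (iWAT), the fat pad of the groin. They were chosen by gene symbol from earlier results of these same libraries, after muscle genes had been seen at high counts in cold HIF2α AKO replicate 1 and TN HIF2α AKO replicate 2. All 39 were found in the table of 23420 genes, and the levels that set these 2 libraries apart are therefore a description with no test. Tissue came from 12 male C57BL/6 mice aged 10 weeks, 1 library per mouse and 3 per group. The genotype of WT mice was HIF2a loxP/loxP and that of HIF2α AKO mice Adipoq-Cre HIF2a loxP/loxP, so the controls were floxed but free of Cre, and Cre was under the promoter of an adipocyte gene. The transgene and the recombined allele thus always occurred together. Mice were kept either thermoneutral (TN) at 30 °C for 1 week or cold at 4 to 6 °C for 3 days. No library in the comparison came from isolated adipocytes, so each value is a sum over every cell type in the dissected fat pad.

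The sarcomere is the repeating contractile unit of striated muscle. Myosin heavy and light chains form its thick filaments, actin with the troponin complex and tropomyosin forms the thin filaments, and Z-discs anchor the thin filaments at each end. Most of these proteins exist as separate gene products in fast-twitch and slow-twitch fibres, and the myosin heavy chain defines the type: Myh4 marks type IIb, Myh1 type IIx and Myh2 type IIa fibres, whereas Myh7 marks slow type I fibres. Adipocytes do not form sarcomeres, and the inguinal fat pad lies beside limb and trunk muscle. Of the 39 genes, 14 were grouped as fast-fibre and 8 as slow-fibre genes from textbook knowledge, and 17 were not assigned.

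Libraries held between 22368316 and 35204631 counts on genes. Values per library are CPM (counts scaled by the library total and its TMM factor), and a count of 0 allowed up to 0.134 CPM in the library with the lowest total and 0.0852 CPM in that with the highest (3 counts, unscaled, counting error only). The 6 adipocyte markers (Adipoq, Plin1, Fabp4, Lep, Cidec and Retn) summed to between 4194 and 27749 CPM, so the labelled tissue was recognisable in every library. Genotypes are given as labelled, because Epas1, which encodes HIF2α, lay at 985, 743 and 748 CPM in cold libraries labelled HIF2α AKO against 576, 562 and 743 CPM in cold WT. At TN its levels were 289, 394 and 360 CPM in libraries labelled HIF2α AKO against 372, 278 and 430 CPM in WT. Reads were summed per gene, so the floxed exons cannot be seen on their own. TN WT replicate 3 stood apart in epithelial markers, whose 7 genes summed to 167 CPM there and to between 4.07 and 9.11 CPM in the other 11 libraries.

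Muscle genes took a far larger share of 2 libraries than of the rest. The 39 genes held 0.169% of all counts in cold HIF2α AKO replicate 1 (exact binomial 95% interval 0.167 to 0.171) and 0.236% in TN HIF2α AKO replicate 2 (0.234 to 0.237). In the other 10 libraries the share lay between 0.0302 and 0.0650%. As summed CPM, the list reached 1988 in cold HIF2α AKO replicate 1, 2304 in TN HIF2α AKO replicate 2 and between 364 and 542 in the others. Tpm3, Des and Myl1, which are also transcribed outside skeletal muscle, made up most of the sum in the 10 other libraries. Without these 3 genes, the remaining 36 summed to 1593 and 1874 CPM in the 2 libraries and to between 42.9 and 143 CPM in the others.

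The genes that were higher in these libraries included every fast-fibre gene. All 14 fast-fibre genes were higher in both libraries than in any of the other 10, against 1 of 8 slow-fibre genes (Myoz2) and 14 of 17 not assigned, which makes 29 of 39 in all. Of all 15306 genes that passed the low-count filter, 1.23% had this pattern, and of the 39 muscle genes 32 passed that filter and 24 of these had it. High counts in these 2 libraries could help a gene pass (27 of the 39 passed among WT libraries alone), so these counts are a description only. The 7 genes in which neither library was above all others were Myh8, Myl3, Tnnt1, Tnni1, Tnnc1, Tpm3 and Casq2. Summed over the 14 fast-fibre genes, the level was 1095 CPM in cold HIF2α AKO replicate 1 and 1286 CPM in TN HIF2α AKO replicate 2, and between 36.8 and 99.3 CPM elsewhere. In those other libraries Myl1 alone lay between 14.7 and 62.1 CPM. Summed over the 8 slow-fibre genes, it was 4.50 and 5.78 CPM in these libraries and between 2.40 and 4.97 CPM in the others. The slow sum of cold HIF2α AKO replicate 1 thus lay inside the range of the other 10, and that of TN HIF2α AKO replicate 2 lay above it.

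**Figure D1:**
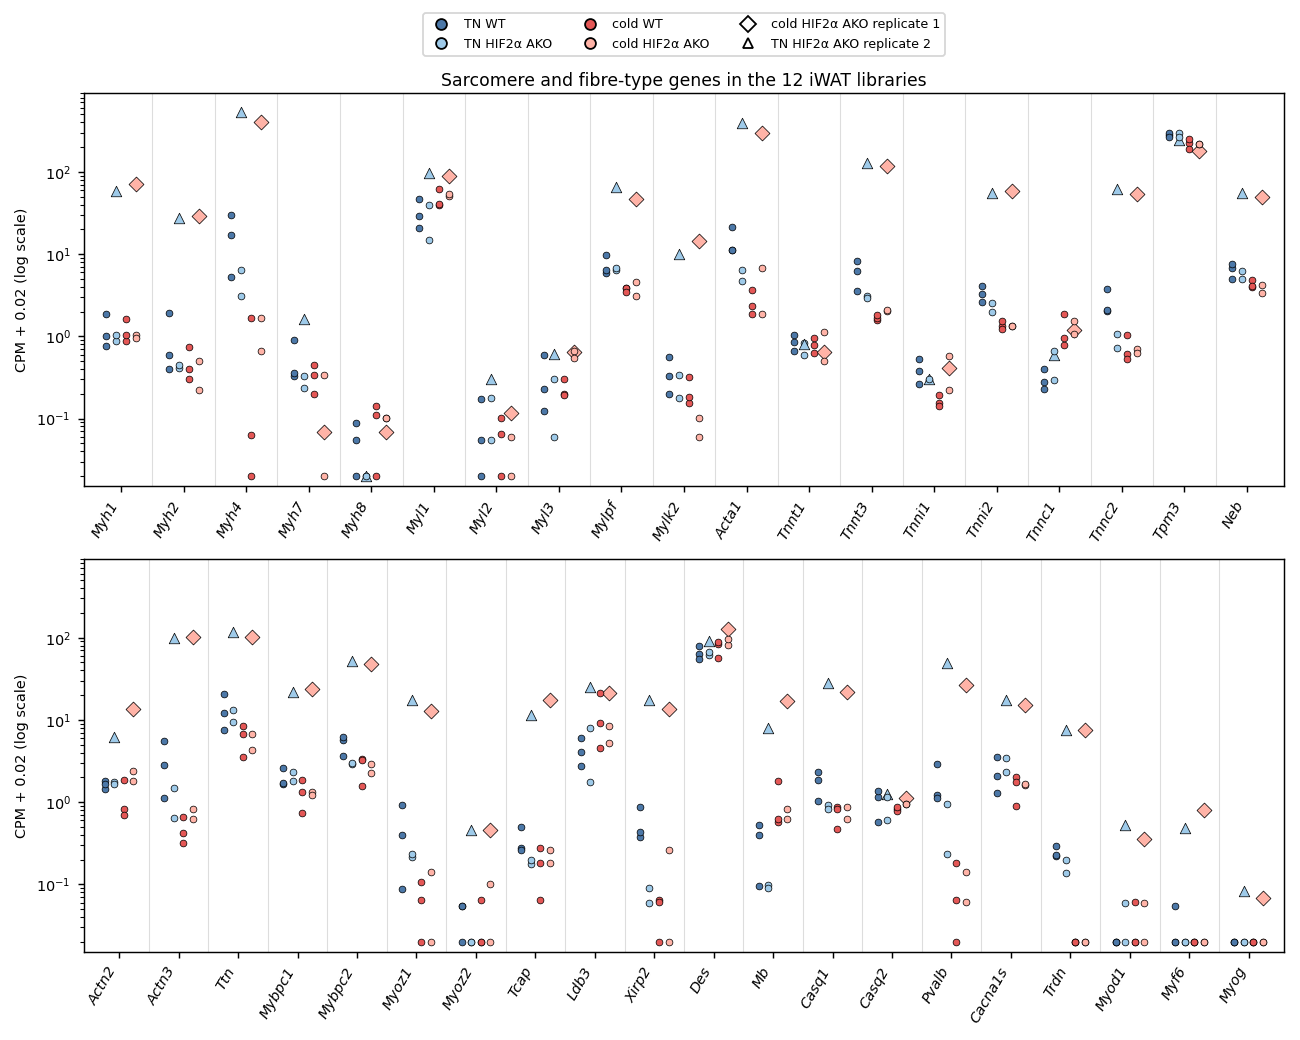
CPM plus 0.02 of each of the 39 genes on a log axis, 1 point per library, coloured by group, with cold HIF2α AKO replicate 1 as a diamond and TN HIF2α AKO replicate 2 as a triangle. Both symbols stand above all other points for 29 of 39 genes, among them all 14 fast-fibre genes, and lie within or below the others for genes such as Tnnt1, Tpm3 and Casq2.

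The myosin heavy chains define the fibre type. Myh4, Myh1 and Myh2 lie side by side on chromosome 11 of GRCm38, at 67238029 to 67260446, 67200052 to 67224575 and 67171027 to 67197517, and Myh7 lies on chromosome 14 at 54970684 to 54994626. The chromosome 11 genes are close copies of each other, and reads that matched several places were not counted, so counts of single genes among them are uncertain. The size of that loss was not measured. The 250 bases before a single RefSeq start of each gene (GRCm38.p6) are shown because these 4 genes define fibre type and differed within the same libraries. Capitals mark E-boxes (CANNTG, the motif of the MyoD family, a palindrome and so the same on both strands) and TATAAA on either strand. The windows are chr11:67237562-67237811, chr11:67199852-67200101 and chr11:67170777-67171026 on the plus strand and chr14:54994627-54994876 on the minus strand, in the order below.
Myh4: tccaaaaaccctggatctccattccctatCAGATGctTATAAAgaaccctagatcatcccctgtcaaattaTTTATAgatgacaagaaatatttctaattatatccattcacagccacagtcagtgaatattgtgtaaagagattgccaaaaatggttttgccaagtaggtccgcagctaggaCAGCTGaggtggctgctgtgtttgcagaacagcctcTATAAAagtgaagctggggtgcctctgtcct
Myh1: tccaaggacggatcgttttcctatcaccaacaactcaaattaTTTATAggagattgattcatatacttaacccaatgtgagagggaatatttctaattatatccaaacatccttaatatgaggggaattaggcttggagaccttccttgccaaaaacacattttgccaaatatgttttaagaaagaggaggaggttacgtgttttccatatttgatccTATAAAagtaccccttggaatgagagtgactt
Myh2: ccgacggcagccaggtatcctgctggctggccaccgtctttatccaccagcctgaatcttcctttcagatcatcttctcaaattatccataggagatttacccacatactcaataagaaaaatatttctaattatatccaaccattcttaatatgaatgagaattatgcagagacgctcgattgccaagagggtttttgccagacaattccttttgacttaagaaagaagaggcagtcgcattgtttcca
Myh7: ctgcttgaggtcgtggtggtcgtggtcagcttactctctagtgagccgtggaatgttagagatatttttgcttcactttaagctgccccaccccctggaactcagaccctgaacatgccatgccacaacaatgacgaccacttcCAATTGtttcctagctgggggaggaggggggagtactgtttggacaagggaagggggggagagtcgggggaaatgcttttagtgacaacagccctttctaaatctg
In the windows shown, Myh4 held 2 E-boxes, at -221 and -67 from the start, and Myh7 held 1 at -106. The Myh1 window held only TATAAA and the Myh2 window neither motif. Another RefSeq window of Myh7, not shown, held 2 E-boxes. Windows were found for 29 of the 39 genes, of which 26 held an E-box (69.3% of all gene symbols with a window did), 7 held TATAAA (14.3%), 3 held the MEF2 motif (0.592%) and 4 the CArG box (1.62%). A gene was counted if any of its windows held the motif. All 8 slow-fibre genes and 7 of the 9 fast-fibre genes with a window held an E-box. Each match describes letters in a window and no site in use.

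Myh4, the heavy chain of type IIb fibres, was counted at 17.3, 30.1 and 5.22 in TN WT, 3.12, 536 and 6.47 in TN HIF2α AKO, 0, 0.0427 and 1.65 in cold WT and 405, 1.65 and 0.641 in cold HIF2α AKO (CPM, replicates 1 to 3 in each group). The 2 libraries that stood apart were 13.4 and 17.8 times as high as the next library, TN WT replicate 2, and cold WT replicate 1 had no Myh4 read. For Myh1, the heavy chain of type IIx fibres, levels were 0.738, 1.85 and 0.989 in TN WT, 0.857, 58.1 and 1.02 in TN HIF2α AKO, 1.61, 0.854 and 1.01 in cold WT and 71.5, 1.00 and 0.921 in cold HIF2α AKO CPM. Outside the 2 libraries Myh1 stayed within a narrow range, and TN and cold groups overlapped. Myh2, found in type IIa fibres, lay at 0.382, 1.92 and 0.580 in TN WT, 0.389, 27.4 and 0.424 in TN HIF2α AKO, 0.716, 0.384 and 0.281 in cold WT and 28.9, 0.482 and 0.200 in cold HIF2α AKO CPM, again with only these 2 libraries outside the common range.

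Slow myosin did not follow. Myh7 reads numbered 12, 10 and 26 in TN WT, 8, 51 and 6 in TN HIF2α AKO, 4, 10 and 8 in cold WT and 1, 0 and 8 in cold HIF2α AKO, which is 1 read in cold HIF2α AKO replicate 1 and 51 in TN HIF2α AKO replicate 2. The ratio of the CPM values of the second to the first was 33.1, with an exact counting interval from 5.67 to 1331. Myh7 was thus among the lowest in one of the libraries and the highest in the other. Reads on Myh8, the heavy chain of the perinatal fibre, numbered 0, 1 and 2 in TN WT, 0, 0 and 0 in TN HIF2α AKO, 2, 0 and 3 in cold WT and 1, 2 and 2 in cold HIF2α AKO, at most 3 in any library. With so few reads no difference in Myh8 was detectable at this depth.

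These heavy chains share one sarcomeric place, and their proportions within a library do not depend on library scaling. Counts were divided by exon length for this purpose. Myh4 made up 80.3% of the 4 adult heavy chains in cold HIF2α AKO replicate 1 and 86.2% in TN HIF2α AKO replicate 2, Myh1 made up 14.01 and 9.24%, Myh2 5.66 and 4.36%, and Myh7 0.00915 and 0.245%. As a share of the 10439 and 19839 reads on these genes, the fast chains held 99.99% (exact interval 99.95 to 99.9998) and 99.74% (99.66 to 99.81). The other 10 libraries had between 40 and 1000 such reads and a fast share per length of between 75.7 and 100%, so their make-up is known far less closely. Whether the reads in those 10 libraries came from muscle fibres was not tested.

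Among those other libraries the make-up of these reads differed between temperatures, which need not mean a change of fibre type. The Myh4 share per length was 92.5, 88.2 and 68.5% in TN WT and 67.1 and 79.8% in TN HIF2α AKO replicates 1 and 3, whereas it was 0, 2.55 and 51.1% in cold WT and 52.9 and 31.2% in cold HIF2α AKO replicates 2 and 3. No cold library of these 10 reached the lowest TN library. Within WT, the mean Myh4 share was 83.1% ± 12.8 at TN and 17.9% ± 28.8 in cold (SD, n = 3 each). A two-sided exact permutation test gave p = 0.1, the smallest value that 3 against 3 mice allow. Myh1 took the larger share in cold WT, at 48.6% ± 16.9 against 7.36% ± 4.80 at TN (SD, n = 3). The Myh2 share was 5.03% ± 2.79 at TN and 20.0% ± 10.3 in cold (SD, n = 3). The same exact permutation test gave p = 0.1 for the Myh1 share and p = 0.1 for the Myh2 share. The share of all fast chains together was 95.5% ± 5.69 at TN and 86.4% ± 9.39 in cold WT (SD, n = 3, exact permutation p = 0.3). The shares of a library sum to 100%, so the Myh1 and Myh2 results are not separate from the lower Myh4 share. In CPM, Myh1 was 1.19 ± 0.583 at TN and 1.16 ± 0.4002 in cold WT, and Myh2 was 0.960 ± 0.836 and 0.461 ± 0.227 (SD, n = 3). The cold WT shares rest on 40 to 81 reads per library, and the exact interval of the Myh4 share of reads ran from 0 to 6.38% in cold WT replicate 1 and from 39.3 to 61.9% in replicate 3.

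**Figure D2:**
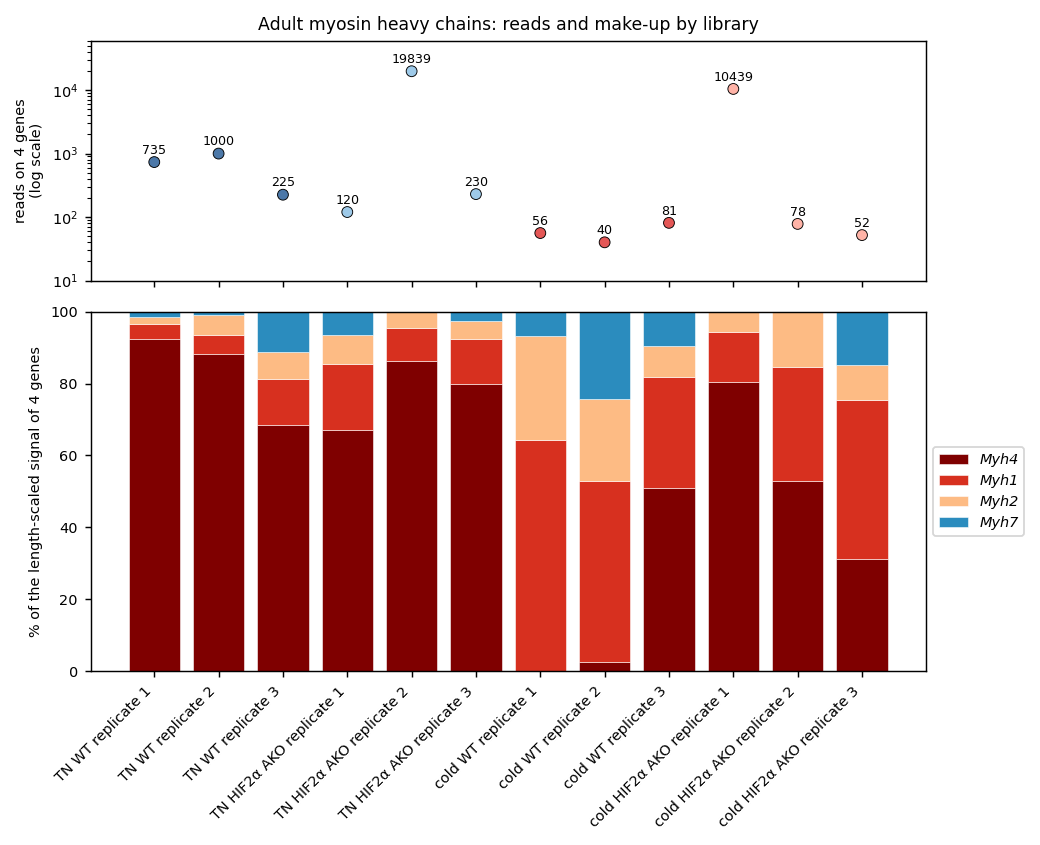
Upper panel, reads on the 4 adult myosin heavy chain genes in each of 12 libraries on a log axis; lower panel, percent of the length-scaled signal of these genes held by Myh4, Myh1, Myh2 and Myh7. Myh4 holds 80.3 and 86.2% in the libraries with 10439 and 19839 reads, and it is lower in the 5 other cold libraries (0 to 52.9%) than in the 5 other TN libraries (67.1 to 92.5%).

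Myosin light chains stabilise the lever arm of the heavy chain. Myl1, the essential light chain of fast fibres, was counted at 29.4, 21.0 and 46.2 in TN WT, 14.7, 97.4 and 39.2 in TN HIF2α AKO, 40.1, 40.8 and 62.1 in cold WT and 88.8, 51.0 and 53.3 in cold HIF2α AKO CPM. It was present at 14.7 CPM or more everywhere, and the 2 libraries exceeded the median of the others only by 2.20 and 2.41 times. Mylpf, the fast regulatory light chain, lay at 5.86, 9.83 and 6.45 in TN WT, 6.31, 65.1 and 6.71 in TN HIF2α AKO, 3.85, 3.89 and 3.46 in cold WT and 46.6, 3.09 and 4.57 in cold HIF2α AKO CPM, 8.95 and 12.5 times that median in the libraries that stood apart. The light chain kinase Mylk2 reached 14.5 and 9.95 CPM against at most 0.548 CPM elsewhere. Neither slow light chain separated the libraries in the same way. Myl3 was at 0.629 and 0.596 CPM, inside the range of the others (0.0389 to 0.643), and Myl2 had 2 and 9 reads against 0 to 6.

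In the thin filament, Acta1 encodes skeletal α-actin. Its levels were 11.2, 21.4 and 11.4 in TN WT, 4.67, 391 and 6.36 in TN HIF2α AKO, 1.83, 3.67 and 2.29 in cold WT and 299, 6.71 and 1.84 in cold HIF2α AKO CPM. Scaled by exon length it was the highest of the 39 genes in both libraries, at 207 and 271 CPM per kb, followed by Tnnt3 at 100.5 and 109 CPM per kb. Before length scaling, Acta1 was 13.97 and 18.3 times as high in them as in the highest of the other 10, TN WT replicate 2. Tpm3, a tropomyosin transcribed in many non-muscle cells as well as in slow fibres, was counted at 280.4, 299.9 and 266 in TN WT, 293, 242 and 263 in TN HIF2α AKO, 224, 253 and 193 in cold WT and 179, 221 and 219.6 in cold HIF2α AKO CPM. Here cold HIF2α AKO replicate 1 was the lowest of all 12 libraries and TN HIF2α AKO replicate 2 lay among the others. Nebulin (Neb), the ruler of the thin filament, reached 49.0 and 55.4 CPM against 3.34 to 7.57 CPM.

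Troponin links calcium to contraction, and each of its 3 subunits has a fast and a slow form. Fast troponin T (Tnnt3) lay at 6.16, 8.32 and 3.58 in TN WT, 3.04, 127 and 2.93 in TN HIF2α AKO, 1.57, 1.67 and 1.81 in cold WT and 117, 2.01 and 2.08 in cold HIF2α AKO CPM. Fast troponin I (Tnni2) was counted at 3.23, 4.11 and 2.59 in TN WT, 1.95, 54.9 and 2.51 in TN HIF2α AKO, 1.30, 1.49 and 1.21 in cold WT and 58.5, 1.33 and 1.32 in cold HIF2α AKO CPM. The fast troponin C gene Tnnc2 had 2.04, 3.70 and 2.08 in TN WT, 0.701, 62.5 and 1.06 in TN HIF2α AKO, 0.582, 0.512 and 1.01 in cold WT and 53.6, 0.683 and 0.601 in cold HIF2α AKO CPM. For all 3 fast subunits the libraries that stood apart were above every other library (between 13.4 and 16.9 times the highest of them), and TN WT exceeded cold WT in each mouse. Slow troponin C (Tnnc1, which overlaps Nisch on the opposite strand) showed another pattern, at 0.255, 0.206 and 0.375 in TN WT, 0.273, 0.565 and 0.636 in TN HIF2α AKO, 0.760, 0.940 and 1.85 in cold WT and 1.16, 1.05 and 1.52 in cold HIF2α AKO CPM. It was higher in each cold library than in each TN library of its genotype, with the libraries that stood apart inside this order. Slow Tnnt1 lay at 0.629 and 0.785 CPM in them against 0.482 to 1.12 CPM, and slow Tnni1 at 0.387 and 0.283 against 0.121 to 0.561 CPM.

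The ratio of a fast gene to its slow partner, both per length, made the same point within each library. Tnnt3 over Tnnt1 was 172 in cold HIF2α AKO replicate 1 and 149.8 in TN HIF2α AKO replicate 2, against 1.54 to 9.36 in the other 10. Tnni2 over Tnni1 was 221 and 284 against 3.45 to 25.1, and Tnnc2 over Tnnc1 was 47.6 and 114 against 0.407 to 18.5. Casq1 over Casq2 came to 27.4 and 32.1 against 0.772 to 5.82. Mybpc2 over Mybpc1, whose second member is not confined to slow fibres, gave 2.20 and 2.63, inside the range of the other libraries (1.40 to 3.79). Myl1 over Myl3 gave 102 and 118, also inside their range (57.3 to 273).

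Z-disc and scaffold genes were above all other libraries in both, with 1 exception among 11. Actn3, the α-actinin of fast fibres, was counted at 2.83, 5.58 and 1.09 in TN WT, 0.623, 101 and 1.48 in TN HIF2α AKO, 0.403, 0.299 and 0.643 in cold WT and 101, 0.603 and 0.801 in cold HIF2α AKO CPM, which is 139.8 and 139 times the median of the other libraries. Titin (Ttn), the elastic protein that spans from Z-disc to the middle of the sarcomere, had 12.2, 20.5 and 7.61 in TN WT, 13.0, 117 and 9.36 in TN HIF2α AKO, 6.75, 8.37 and 3.54 in cold WT and 103, 4.34 and 6.69 in cold HIF2α AKO CPM. The repeat protein Xirp2 lay at 0.356, 0.856 and 0.409 in TN WT, 0.0389, 17.4 and 0.0707 in TN HIF2α AKO, 0.0447, 0 and 0.0402 in cold WT and 13.7, 0.241 and 0 in cold HIF2α AKO CPM. All 3 were highest in the same 2 libraries, with TN WT next for Actn3 and Xirp2. Desmin (Des), an intermediate filament protein of all muscle types, was counted at 63.9, 78.7 and 55.2 in TN WT, 61.9, 90.1 and 66.8 in TN HIF2α AKO, 84.6, 88.3 and 57.0 in cold WT and 128, 82.6 and 96.1 in cold HIF2α AKO CPM, so only cold HIF2α AKO replicate 1 was above all others. The remaining members were Mybpc1 and Mybpc2, which bind the thick filament, and Actn2, Myoz1, Myoz2, Tcap and Ldb3 of the Z-disc. Their levels in the 2 libraries were at most 52.3 CPM (Mybpc2), and that of Ldb3 exceeded the highest other library only narrowly in 1 of them, at 21.3 and 25.0 CPM against up to 21.1 CPM in cold WT replicate 3.

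Genes that handle calcium and oxygen completed the fast pattern. Parvalbumin (Pvalb), the calcium buffer of the fastest fibres, was counted at 1.20, 2.88 and 1.09 in TN WT, 0.935, 49.3 and 0.212 in TN HIF2α AKO, 0.0447, 0 and 0.161 in cold WT and 26.9, 0.0402 and 0.120 in cold HIF2α AKO CPM. Calsequestrin 1 (Casq1), which stores calcium in fast fibres, had 1.86, 2.30 and 1.02 in TN WT, 0.896, 28.3 and 0.813 in TN HIF2α AKO, 0.447, 0.854 and 0.804 in cold WT and 21.9, 0.603 and 0.841 in cold HIF2α AKO CPM. Pvalb differed most among the fast genes between the 2 libraries, as is given below. The calcium channel Cacna1s and its partner triadin (Trdn) reached 15.2 and 7.46 CPM in cold HIF2α AKO replicate 1 and 17.3 and 7.60 CPM in TN HIF2α AKO replicate 2, against at most 3.56 and 0.274 CPM. Myoglobin (Mb), the oxygen store of oxidative fibres, was at 16.8 and 7.88 CPM against 0.0707 to 1.79 CPM. Casq2, the calsequestrin of slow fibres and heart, was at 1.11 and 1.22 CPM, inside the range of the others (0.548 to 1.33).

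The regulators of the muscle lineage were nearly silent outside these libraries. Myf6 (MRF4), the family member most abundant in adult fibres, had 16 reads in cold HIF2α AKO replicate 1, 15 in TN HIF2α AKO replicate 2 and 1 in all other libraries together, that read being in TN WT replicate 2. Myod1, which is higher in fast than in slow muscle, had 7 and 16 reads against 3 in the other 10 libraries, 1 each in TN HIF2α AKO replicate 1, cold WT replicate 3 and cold HIF2α AKO replicate 3. Myog, known for differentiating myoblasts, had 1 and 2 reads, and 0 in each of the other 10. No ratio is given for these genes, because the comparison libraries held at most 3 reads in all.

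The libraries that stood apart were close in their median ratio, while single genes differed. Over the 14 fast-fibre genes the median ratio of TN HIF2α AKO replicate 2 to cold HIF2α AKO replicate 1 was 1.10, and over the 30 genes whose median count in the other libraries was above 3, they exceeded the median of the others by median factors of 13.6 (cold HIF2α AKO replicate 1) and 13.9. For the fast genes with such a factor (13 of 14) the medians were 62.9 and 58.3, and for 6 slow genes 1.39 and 1.24. Exact counting intervals separated several genes from a ratio of 1. Pvalb was 1.83 times (1.66 to 2.02) and Myh4 1.32 times (1.29 to 1.36) as high in TN HIF2α AKO replicate 2. Mb at 0.468 (0.396 to 0.552), Actn2 at 0.464 (0.385 to 0.559), Tcap at 0.648 (0.559 to 0.752), Mylk2 at 0.685 (0.583 to 0.805) and Myh1 at 0.813 (0.759 to 0.871) were lower there, whereas Actn3 had a ratio of 0.995 (0.942 to 1.05). These intervals compare 2 libraries and cover counting error only, not the spread between mice, and temperature differed between them as well.

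**Figure D3:**
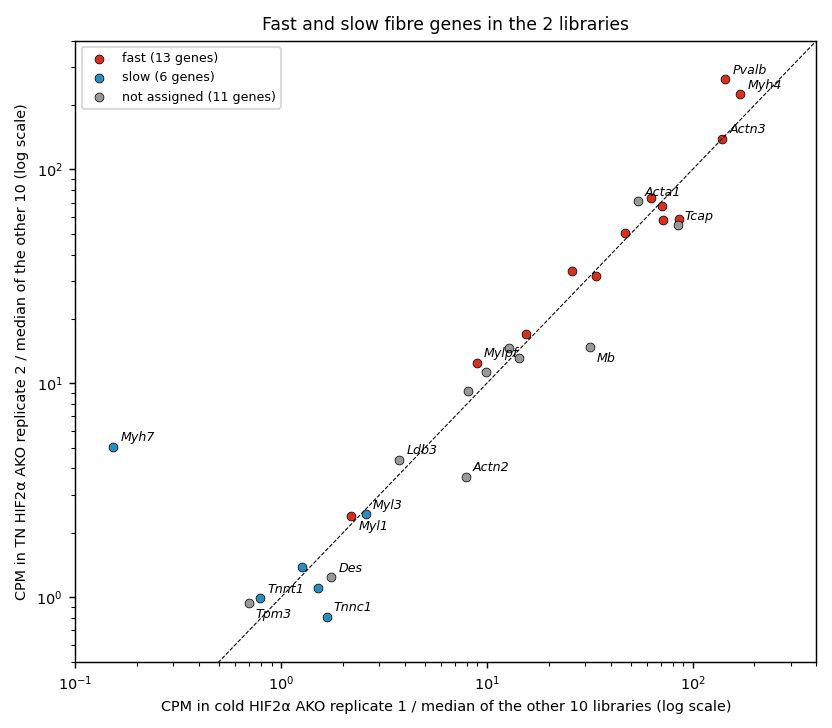
Fold of the CPM in cold HIF2α AKO replicate 1 (horizontal, log axis) and in TN HIF2α AKO replicate 2 (vertical, log axis) over the median of the other 10 libraries, for the 30 genes whose median count there was above 3, coloured by fibre type; the dashed line marks equality. Fast genes run along the line from 2.20 and 2.41 times (Myl1) up to 170 and 264 times. The slow genes Tnnt1, Tnni1, Tnnc1 and Casq2 sit between 0.793 and 1.66, and slow Myl3 at 2.58 and 2.45. Myh7 (0.153 and 5.07), Mb and Actn2 lie off the line.

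Other muscle genes that are not part of the 39 were read from a list of 52, of which 51 were in the table. Both libraries were above the other 10 for 31 of these 51, and for 22 of the 32 that passed the filter, beside 1.23% of all genes that passed. Here too high counts in the 2 libraries could help a gene pass (27 of the 51 passed among WT libraries alone). The calcium pump of fast fibres, Atp2a1, was at 9.75, 21.2 and 5.80 in TN WT, 5.92, 395 and 7.95 in TN HIF2α AKO, 2.46, 2.39 and 2.61 in cold WT and 424, 2.81 and 3.24 in cold HIF2α AKO CPM. Muscle creatine kinase (Ckm) had 3.05, 5.31 and 0.887 in TN WT, 0.740, 116 and 1.73 in TN HIF2α AKO, 0.134, 0 and 0.322 in cold WT and 89.9, 0.241 and 0.120 in cold HIF2α AKO CPM. Each was highest in the libraries that stood apart, followed by TN WT replicates 2 and 1. By function, the pattern held for 8 of 13 genes of excitation-contraction coupling, 7 of 9 of muscle energy metabolism and 15 of 16 further sarcomere and membrane scaffold genes. It held for 1 of 7 neuromuscular junction genes (Chrna1) and for 0 of 6 genes of satellite cells and developing fibres, whose sum was 0.484 and 0.753 CPM against 0.121 to 0.582 CPM. Pax7, the defining gene of satellite cells, and Myf5 had no read in either library.

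Markers of neighbouring cell types did not follow the muscle genes in the 2 libraries. None of the 6 smooth muscle and none of the 6 heart muscle markers was above the other 10 libraries in both. Smooth muscle markers summed to 192 CPM in cold HIF2α AKO replicate 1 and 171 CPM in TN HIF2α AKO replicate 2, against 141 to 329 CPM, and heart muscle markers to 2.90 and 3.83 against 3.10 to 7.54 CPM. The heart gene Myl7 was at 0 and 0.0942 CPM. Adipocyte (21213 and 11496 CPM), endothelial (804 and 728 CPM), macrophage (448 and 755 CPM), B lymphocyte (317 and 611 CPM) and Schwann cell markers (209 and 162 CPM) lay within the ranges of the others, except that the Schwann cell sum of TN HIF2α AKO replicate 2 was below their lowest (186 CPM). Those ranges pool both temperatures. Within TN, the adipocyte sum of TN HIF2α AKO replicate 2 was above that of every other library (4194 to 10511 CPM). Within cold, the Schwann cell sum of cold HIF2α AKO replicate 1 was below that of every other library (217 to 240 CPM). The endothelial, macrophage and B lymphocyte sums lay within the range of their temperature. Cold HIF2α AKO replicate 1 was the highest library in the 4 thermogenic adipocyte markers, at 8042 CPM against 3102 to 5527 CPM in the other cold libraries. Cox7a1 and Cox8b, which thermogenic adipocytes and muscle both use, were highest there at 130.3 and 285 CPM, and at 2.04 and 17.1 CPM in TN HIF2α AKO replicate 2, against at most 1.91 and 13.1 CPM in the other TN libraries. The part of these markers in the levels of the 39 genes was not tested. In whole tissue, more muscle cells and more muscle RNA per cell cannot be told apart.

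**Figure D4:**
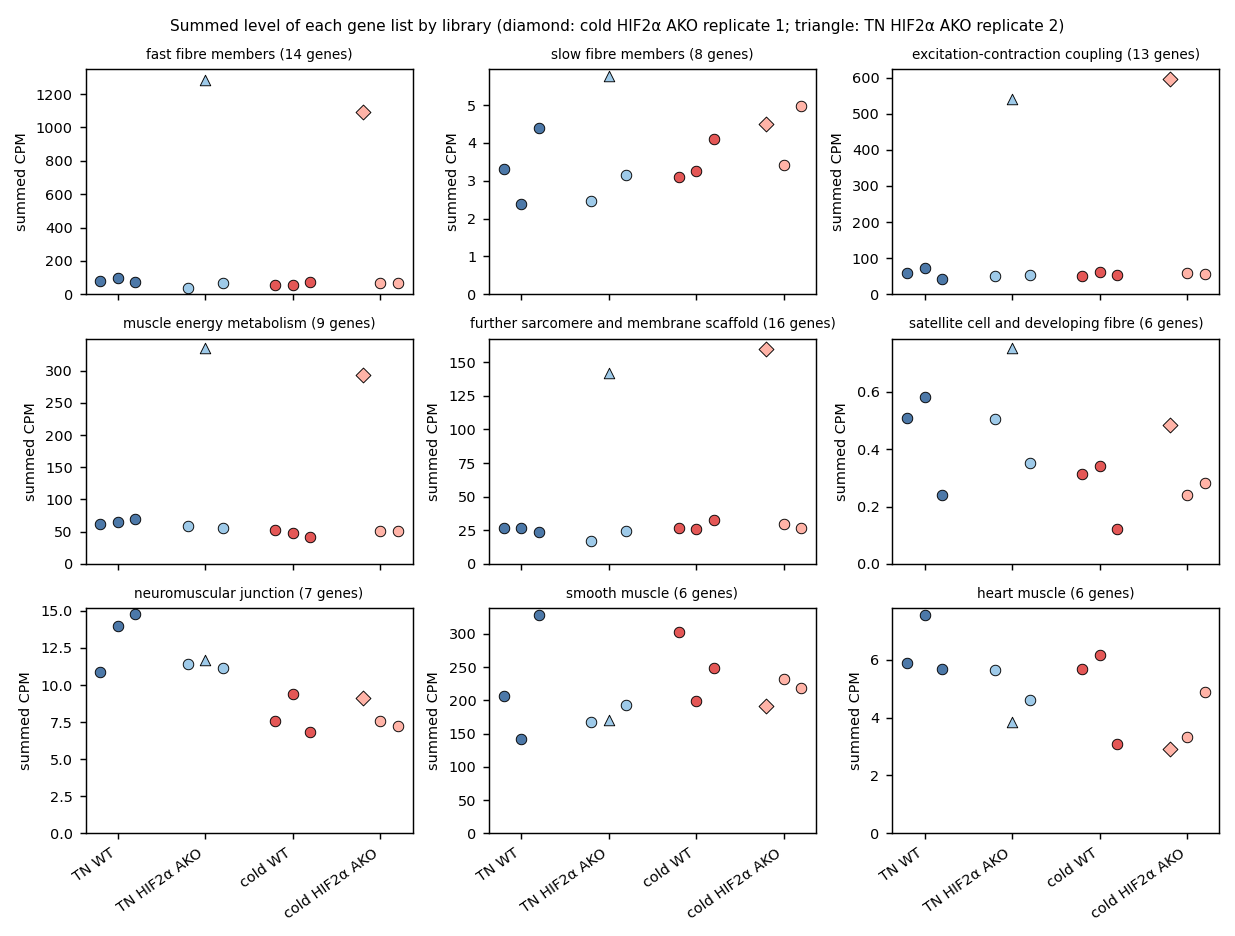
Summed CPM of 9 gene lists in each library, 1 point per library, coloured by group, with cold HIF2α AKO replicate 1 as a diamond and TN HIF2α AKO replicate 2 as a triangle; each axis starts at 0. Both symbols are far above the rest for fast-fibre, excitation-contraction coupling, energy metabolism and scaffold genes, and inside the spread for smooth muscle and neuromuscular junction genes. For slow-fibre genes and for satellite cell and developing fibre genes only the triangle is above the rest, and for heart muscle genes the diamond is lowest.

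Whether cold changed muscle genes in WT iWAT was asked of the 6 WT libraries alone, since a fit with all libraries would take the spread of these genes from the 2 that stood apart. WT libraries entered the choice of genes only as part of the 10 others. In cold, several fast-fibre genes were lower, whereas the number of genes that were higher did not exceed the background. Of the 27 genes that passed the filter, 9 were lower and 1 was higher in cold at an adjusted p under 0.05 (edgeR quasi-likelihood test, Benjamini-Hochberg over 14975 genes), beside 1.9% of all tested genes lower and 9.8% higher. The median log2 fold change was -0.69 over the 27 genes and -0.03 over all genes tested, and 22 of 27 were below 0. Fast-fibre genes were lower in 7 of 12 tested (Myh4, Pvalb, Actn3, Tnnc2, Tnnt3, Tnni2 and Mylpf). Of 4 slow genes tested, Tnnc1 was higher, and of 11 not assigned, Acta1 and Xirp2 were lower.

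Myh4 had the largest estimate, a log2 fold change of -4.91 (standard error 1.19, edgeR adjusted p = 0.0438), which was -9.43 without cold WT replicate 3, which held 41 of the reads against 0 and 1 in the other cold WT libraries. Pvalb followed at -4.52 (standard error 0.80, edgeR adjusted p = 0.0194). Xirp2 had 51 reads in TN WT and 2 in cold WT, a ratio of 18.4 (exact counting interval 4.84 to 156, edgeR adjusted p = 0.0227). The estimate best separated from its error was that of Acta1, at -2.49 (standard error 0.37, edgeR adjusted p = 0.0122). The other called genes were Actn3 at -2.80, Tnnc2 at -1.88, Tnnt3 at -1.84, Tnni2 at -1.31 and Mylpf at -0.98, with adjusted p from edgeR between 0.0204 and 0.0442. Tnnc1 changed in the opposite direction, at 2.08 (standard error 0.45, edgeR adjusted p = 0.0348), and each cold WT mouse was above each TN WT mouse.

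Members of the fast group were not uniform. Myh1 had a log2 fold change of -0.04 (standard error 0.43), Myh2 of -1.04 (0.70) and Myl1 of 0.57 (0.31), none of which passed the test. Casq1 at -1.29, Ttn at -1.11 and Mybpc2 at -0.93 also missed the threshold, as did Ldb3 at 1.43 and Mb at 1.64. In 15 of the 39 genes all cold WT mice were below all TN WT mice, in 2 (Tnnc1 and Mb) they were above, and in 22 the groups overlapped. Among the 32 muscle genes that passed the filter over 12 libraries these counts were 14 and 2, beside 19.3% of all 15306 such genes below and 22.7% above. The count of 2 did not exceed that background. Summed CPM of the 39 genes was 481 ± 55.1 in TN WT and 395 ± 31.0 in cold WT (SD, n = 3, two-sided exact permutation p = 0.1). The fast sum was 83.8 ± 13.5 in TN WT and 61.4 ± 12.5 CPM in cold WT (SD, n = 3, exact permutation p = 0.2), and the mice overlapped. Myl1 made up 32.2 and 47.7 CPM of these means. The slow sum was 3.37 ± 1.00 and 3.48 ± 0.546 CPM (SD, n = 3, exact permutation p = 1).

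**Figure D5:**
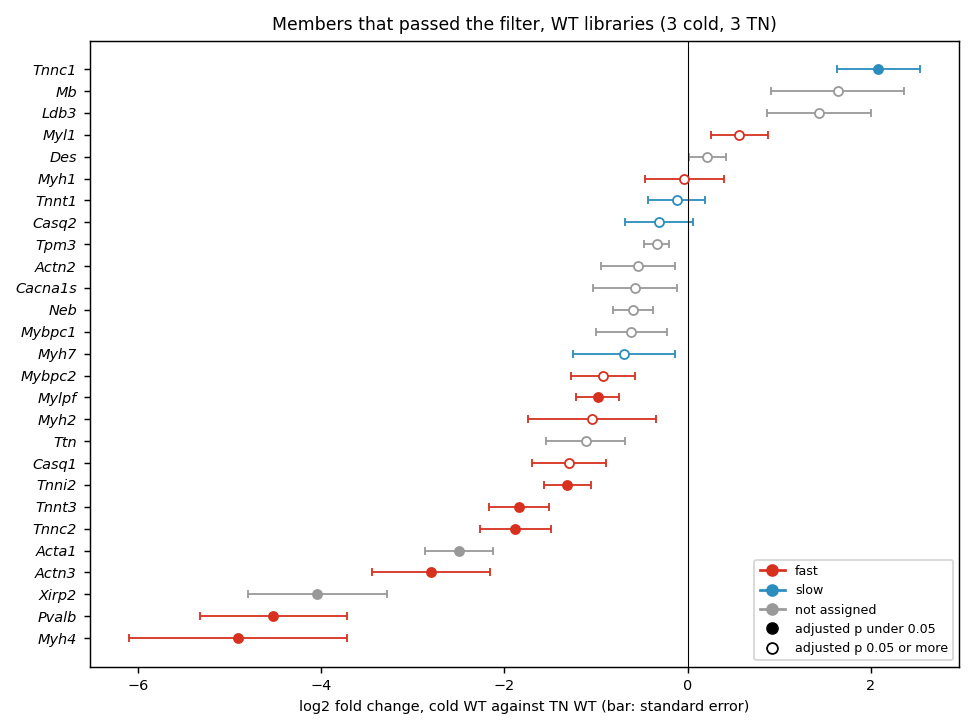
Log2 fold change of cold against TN WT (3 mice each) for the 27 genes that passed the filter, with the standard error as a bar, coloured by fibre type; filled points have an adjusted p under 0.05. The 9 filled points on the left include 7 fast-fibre genes from -4.91 (Myh4) to -0.98 (Mylpf), and Tnnc1 is the single filled point on the right.

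These calls depended on single mice. Without TN WT replicate 1, 0 of 27 genes were called by edgeR (12 at an unadjusted p under 0.05), while calls over all genes fell from 1752 to 77. The number called was 1 without cold WT replicate 1, 2 without cold WT replicate 2, 4 without cold WT replicate 3, 3 without TN WT replicate 2 and 11 without TN WT replicate 3, the library with epithelial markers. Every estimate kept its sign in these fits, where Xirp2 was not fitted without TN WT replicate 3 and so counts in 5 of the 6. Other tissue components moved between the groups too: adipocyte markers summed to between 4194 and 10511 CPM in TN WT and between 14094 and 27749 CPM in cold WT, thermogenic adipocyte markers to between 8.39 and 39.4 CPM against 3102 to 4563 CPM, and B lymphocyte markers to between 559.7 and 966 against 289 to 521 CPM. Smooth muscle markers overlapped, at 141 to 329 and 199 to 303 CPM, and so did macrophage markers, at 377 to 761 and 429 to 728 CPM. Their part in the muscle gene differences was not tested.

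Among the other muscle genes, 27 of 51 passed the filter in WT, of which 4 were lower in cold (Atp2a1, Ckm, Pygm and Chrnb1) and 3 were higher, beside 1.9% of all tested genes lower and 9.8% higher, so the number higher was near the background. Atp2a1 fell by 2.30 and Ckm by 4.28 on the log2 scale. The genes that rose were Fbp2, the muscle form of fructose-bisphosphatase, by 3.61, Srl (sarcalumenin) by 1.89 and Lmod3, an actin nucleator, by 1.59. Fbp2 lay at 0.331, 0.0685 and 0.648 in TN WT, 0.156, 0.659 and 0.389 in TN HIF2α AKO, 3.98, 4.66 and 4.26 in cold WT and 13.4, 6.95 and 5.85 in cold HIF2α AKO CPM. Every cold library was above every TN library in Fbp2, and TN HIF2α AKO replicate 2, which was among the highest in most muscle genes, was at the top of the TN range only.

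Set against WT, groups labelled HIF2α AKO looked higher in muscle genes at both temperatures, and each difference rested on 1 mouse. In cold, the median log2 fold change over the 32 tested genes was 2.66 (-0.02 over all genes), 29 of 32 were above 0, and 0 passed the test in edgeR or DESeq2 (0.00653% of all genes did in edgeR). The median was 0.067 without cold HIF2α AKO replicate 1. At TN the median was 2.03 (0.01 over all genes), 28 of 32 were above 0 and again 0 passed in either tool (0.00653% of all genes). Without TN HIF2α AKO replicate 2 it was -0.53, and all 14 fast-fibre genes turned to values below 0, with a median of -1.01. At an unadjusted p under 0.05 edgeR counted 15 of 32 in cold, beside 2.95% of all genes, and 0 of 32 at TN, beside 2.91%. The cold count was 3 of 32 with DESeq2 and also with the replicate number as a block. It was 15 of 32 with median-of-ratios size factors and 19 of 39 with no low-count filter. Leaving out 1 cold library gave 1 of 32 (cold HIF2α AKO replicate 1) to 24 of 34 (cold HIF2α AKO replicate 2). The choice of the 39 genes used these contrasts, so their values and these counts are a description only.

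Cold against TN within libraries labelled HIF2α AKO set one outlying library against the other. The median log2 fold change over 32 genes was -0.01, and 1 gene, Tnnc1 at 1.32 (standard error 0.41), was called, beside 27% of all genes. That call was lost with any 1 of the 6 libraries left out (edgeR adjusted p between 0.0559 and 0.135) and without both outlying libraries (edgeR adjusted p = 0.112), while the estimate stayed above 0. The median was -2.85 without cold HIF2α AKO replicate 1, 2.35 without TN HIF2α AKO replicate 2 and -0.29 without both. Fast-fibre genes had a median of -0.54 without both libraries, with 11 of 13 below 0. This comparison shares its libraries with both genotype comparisons. Myh4, for instance, was at 3.12 and 6.47 CPM in the remaining TN libraries labelled HIF2α AKO and at 1.65 and 0.641 CPM in the remaining cold ones.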

How the data were processed

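The authors trimmed reads with Trim Galore 0.4.4, aligned them with STAR 2.6.1d to GRCm38 and counted them with HTSeq 0.13.5. They deposited whole read counts per gene without normalization, and the annotation, the strand setting and the handling of overlapping genes are not given in the sources used here. The 5 HTSeq tallies of reads outside genes (21.9 to 27.0% of the reads listed) were left out of totals. The table of the series and the tables per sample held identical counts for 12 libraries.

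Counts were tested with edgeR 4.0.16 in R 4.3.3 (TMM, filterByExpr at its count limit of 10 and total of 15, quasi-likelihood test, Benjamini-Hochberg limit 0.05), on the 6 WT libraries for WT and on 12 libraries in 4 groups otherwise. DESeq2 1.42.0 was an alternative, beside other scaling, no filter, a replicate block, other libraries in the fit and each library left out in turn. The processing was tested on simulated data. Lengths and positions came from GENCODE M21 and promoters from RefSeq, neither being necessarily the annotation that the authors used. Reads of 8 of the 39 genes can be shared with overlapping genes (Des, Mb, Myh7, Myl2, Myl3, Tnnc1, Tnnc2 and Trdn). Folds over the other libraries are given where their median count was above 3, and intervals are exact binomial (95%). Counts are per mouse, so the tests set differences against the spread between these mice. In edgeR that spread is estimated with information shared across genes. Fewer reads give wider intervals.

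The 39 genes and all lists were chosen with earlier results of these data known. Named with a value in every library are the heavy chains and regulators, the 2 highest genes of each other role group by mean CPM, and genes called in WT. Atp2a1, Ckm and Fbp2 were named after their values were seen. Mymk, Adgre1, Hbb-bs and Hbb-bt had no row, and Hba-a1 and Hba-a2 were at 0.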

Additional observations from a re-analysis of the deposited data

How the results depend on the processing

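The number of muscle genes called between cold and TN in WT was 10, and it was 10 with median-of-ratios size factors, 11 without a low-count filter and 13 with DESeq2, but 1 (Tnnc1) in a fit of all 12 libraries and between 0 and 11 with each library left out. The 10 genes kept their direction in each of these fits that included them, and Xirp2 was not fitted without TN WT replicate 3 and had no adjusted p in DESeq2. The median log2 fold change in WT ranged from -1.03 to -0.67 with a library left out. With the replicate number as a block 14 genes were called, the 10 among them, but the numbers did not pair the mice: correlations of deviations between same-numbered libraries ran from -0.43 to 0.39 and exceeded 0.1 in 5 of 18 pairs.

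Over libraries left out in turn, the median in libraries labelled HIF2α AKO against WT ranged from 0.067 to 3.25 in cold and from -0.53 to 3.08 at TN, and that of cold against TN in libraries labelled HIF2α AKO from -2.85 to 2.35. Leaving out both libraries that stood apart gave 0.067 in cold and -0.49 at TN. With other scaling, no filter, DESeq2 or a block, the medians ran from 2.36 to 2.75 in cold and from 1.66 to 2.50 at TN. For cold against TN in libraries labelled HIF2α AKO they ran from 0.016 to 0.029. These shifts were smaller than the spread between replicates, but that spread includes the libraries that stood apart and so is a weak yardstick. With library totals alone, the summed CPM was 302 in cold WT replicate 3 (364 with TMM) and 650.0 in TN WT replicate 2 (542 with TMM). The fast share, taken over all fast and slow members in place of heavy chains, was 93.4% in cold WT replicate 2 (75.7% from heavy chains) and 94.96% in TN WT replicate 3 (88.9%). Much of that fast signal was Myl1, which is also transcribed outside skeletal muscle. It gave 27.7 of 38.1 CPM per kb in cold WT replicate 2 and 31.3 of 52.4 in TN WT replicate 3. Depth limits the slow genes and regulators, many at under 20 reads per library.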

Other observations

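Genes of the neuromuscular junction, the contact of nerve and fibre, differed from the sarcomere genes. The 7 genes (Chrna1, Chrnb1, Chrnd, Chrne, Musk, Dok7 and Rapsn) summed to between 10.9 and 14.8 CPM in the 6 TN libraries and between 6.84 and 9.40 CPM in the 6 cold libraries, with no overlap. TN HIF2α AKO replicate 2 (11.7 CPM) and cold HIF2α AKO replicate 1 (9.10 CPM) lay inside the range of their temperature. Most of the sum was Chrnb1, an acetylcholine receptor subunit, which was lower in cold WT (log2 fold change -0.85, standard error 0.18, edgeR adjusted p = 0.0308). Gene by gene in WT, only Chrnb1 had all cold mice below all TN mice, and the others overlapped. Of all genes that passed the filter, 19.3% had that pattern in WT. No such share was computed for sums of genes over both genotypes, so the lack of overlap in the sum cannot be called a trait of the list. This list was written with results of these data known.

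Srl, which encodes the calcium-binding protein sarcalumenin of the sarcoplasmic reticulum, combined both patterns. It was at 6.44, 5.79 and 6.48 CPM in TN WT and 17.8, 24.9 and 26.5 CPM in cold WT (log2 fold change 1.89, standard error 0.18, edgeR adjusted p = 0.00478). Cold HIF2α AKO replicate 1 reached 52.5 CPM against 25.8 and 24.8 CPM in the other cold libraries of that label, and TN HIF2α AKO replicate 2 reached 20.8 CPM against 4.13 and 7.28 CPM. Srl and Chrnb1 were singled out after their values were seen.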
